A study of Homo sapiens with 4 samples.

Results

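The 45 genes described here drive and execute mitosis: G2/M kinases and cyclins, the spindle checkpoint, the kinetochore, the spindle motors and the cytokinesis machinery. They were chosen by gene symbol from a fixed list, and 45 of 45 were found among the 58174 genes of the files. Estimated counts of their transcripts were summed per gene, and all 45 passed the filter on low counts that left 18349 genes. RNA-seq libraries of total RNA were compared between EED-knockout Daoy cells (2 libraries) and wild type Daoy cells (2 libraries). Daoy is an established human medulloblastoma line, EED is a core subunit of the H3K27 methyltransferase complex PRC2, and the labels name no treatment in either genotype. How the EED lesion was made and whether a genotype's pair of libraries stems from different clones or cultures is not in the labels, so every p-value rests on the differences among the 4 libraries, and these may be technical.

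Cells enter mitosis when cyclin B and CDK1 become active, and PLK1 and the Aurora kinases then build the spindle. Kinetochores tie chromosomes to microtubules, the spindle checkpoint holds the anaphase-promoting complex (APC/C) in check until all are attached, and the central spindle and contractile ring divide the cell. Transcripts of these genes accumulate in G2 and M phase, under the MuvB complex with B-MYB and FOXM1, so in a bulk library their level follows both the share of dividing cells and the transcript content per dividing cell, which cannot be told apart here.

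EED itself was measured at 17.9 and 26.2 CPM (counts scaled to the normalised library size) in the EED-knockout libraries, against 34.5 and 27.6 CPM in the wild type libraries. Both knockout values lay below both wild type values, with a log2 fold change of -0.49 ± 0.27 (SE; edgeR adjusted p = 0.878). Libraries held 18164045 to 19022736 estimated counts in the knockout and 17836112 to 19106382 in the wild type. Over all genes tested, log2 CPM of EED-knockout 1 correlated at 0.953 with EED-knockout 2 and at 0.963 with wild type 2, while the wild type libraries correlated at 0.9752, so the knockout libraries were not each other's nearest. Of the 8 granule lineage and medulloblastoma markers, 5 passed the filter, among them ZIC1 and GLI2, while ATOH1 was counted 0 times in each library, which leaves room for a level of 0.168 CPM at most. Of the 5 blood cell markers, CD3E was at 0 counts in every library and CD14 alone passed the filter, at 10 to 19 counts. Of the 3 endothelial markers 1 passed. The 4 fibroblast markers passed, summing to 2948 and 3038 CPM in knockout libraries, against 1954 and 2884 CPM in wild type libraries. Nearly all of this was COL1A1 (log2 fold change 0.32), while PDGFRB (-0.61), LUM (-0.44) and DCN (-0.75, at 8 to 23 counts) were below 0, for a list median of -0.53.

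The mitosis genes share promoter features that the choice of members did not use. In human cells the CHR element, to which MuvB binds through LIN54, and CCAAT boxes, bound by NF-Y, are typical of G2/M promoters. RefSeq promoter windows (250 bases before to 50 after a gene start, GRCh38.p14) were found for 38 of the 45 genes. AURKA, BIRC5, BUB3, FOXM1, TPX2, TTK and UBE2C had no window in the table used. CHR letters (TTTGAA or TTCGAA, either strand) stood in a window of 30 of these genes, 78.9%, against 15.8% of the 11784 tested genes with a window and 19.5% of all genes with one. CCAAT, on either strand, stood in 32 genes, 84.2%, against 42.8% of tested genes and 39.7% of all genes. Both motifs stood together in 68.4% of the mitosis genes, against 6.65% of tested genes. The motifs were not particular to these genes. In the other cell cycle lists described further on, 115 genes had a window. Of those, 47.8% held CHR letters, 60% held CCAAT and 26.1% held both. A match is a description of the letters, not of a bound site.

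Stretches of 120 bases that end just before the gene start are shown for genes that the results below turn on, 5′ to 3′ on the gene's strand, with CHR and CCAAT matches in capitals. MKI67 (chr10:128126424-128126543, minus strand) and INCENP (chr11:62123891-62124010, plus strand) were the members highest in knockout relative to wild type in their role groups. CCNB2 (chr15:59105026-59105145, plus strand) and PLK1 (chr16:23678769-23678888, plus strand) hold CHR letters at the same distance from the start. CCNB1 (chr5:69167030-69167149, plus strand) and PTTG1 (chr5:160421735-160421854, plus strand) were the members lowest in knockout relative to wild type.
MKI67: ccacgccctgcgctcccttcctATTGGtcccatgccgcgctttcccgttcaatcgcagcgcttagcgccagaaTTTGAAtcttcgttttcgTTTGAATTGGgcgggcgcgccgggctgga
INCENP: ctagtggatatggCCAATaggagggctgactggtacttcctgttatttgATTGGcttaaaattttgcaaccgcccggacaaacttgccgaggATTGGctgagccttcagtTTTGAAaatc
CCNB2: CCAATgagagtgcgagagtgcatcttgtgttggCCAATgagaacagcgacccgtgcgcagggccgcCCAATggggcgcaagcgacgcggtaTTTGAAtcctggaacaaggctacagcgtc
PLK1: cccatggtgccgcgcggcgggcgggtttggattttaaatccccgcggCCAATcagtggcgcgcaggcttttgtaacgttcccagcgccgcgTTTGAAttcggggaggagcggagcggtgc
CCNB1: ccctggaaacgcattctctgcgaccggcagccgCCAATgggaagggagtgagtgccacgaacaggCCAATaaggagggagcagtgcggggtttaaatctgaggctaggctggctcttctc
PTTG1: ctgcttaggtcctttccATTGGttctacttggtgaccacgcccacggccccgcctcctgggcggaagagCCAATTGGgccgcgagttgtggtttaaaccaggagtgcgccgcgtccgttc
In CCNB2 and PLK1 the CHR letters begin 29 bases before the start, with a CCAAT box beginning 54 and 73 bases before it. MKI67 holds CHR letters beginning 47 and 29 bases before the start, and the second shares 1 base with a reversed CCAAT box beginning 24 bases before it. In PTTG1 the 2 motifs beginning 51 and 48 bases before the start overlap on opposite strands. The CCNB1 and PTTG1 windows held CCAAT but not the CHR letters searched.

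All 45 genes were well expressed in both genotypes, with at least 483 estimated counts in every library. Per transcript length, CCNB1, the main mitotic cyclin, was the most abundant at a mean of 362 TPM (transcript abundance scaled for length and depth) over 4 libraries. UBE2C, the ubiquitin-conjugating enzyme of the APC/C, followed at 293 TPM, BUB3, a checkpoint protein, at 289.8 TPM, and PTTG1, the securin that restrains separase, at 254 TPM. CDC20 (247 TPM), TOP2A (245 TPM) and ANLN (243 TPM) came next and lay within a few TPM of each other, less than the spread between libraries. The least abundant were KIF20B at 24.8 TPM, KIF14 at 17.8 TPM and CENPE, a kinetochore motor, at 12.8 TPM. Summed over the 45 genes, TPM was 5332 and 5635 in the EED-knockout libraries, against 4963 and 4714 in the wild type libraries. The corresponding sums in CPM were 8689 and 8808 in knockout libraries, against 8407 and 7452 in wild type libraries. On both scales the genotypes' sums did not overlap, and on the CPM scale wild type 1 was closer to the knockout libraries than to wild type 2. The CPM separation rested on TOP2A and MKI67, which together held 1633 and 1461 CPM in knockout libraries, against 1118 and 1222 CPM in wild type libraries. Without them the CPM sum of EED-knockout 1 would lie below that of wild type 1.

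**Figure D1:**
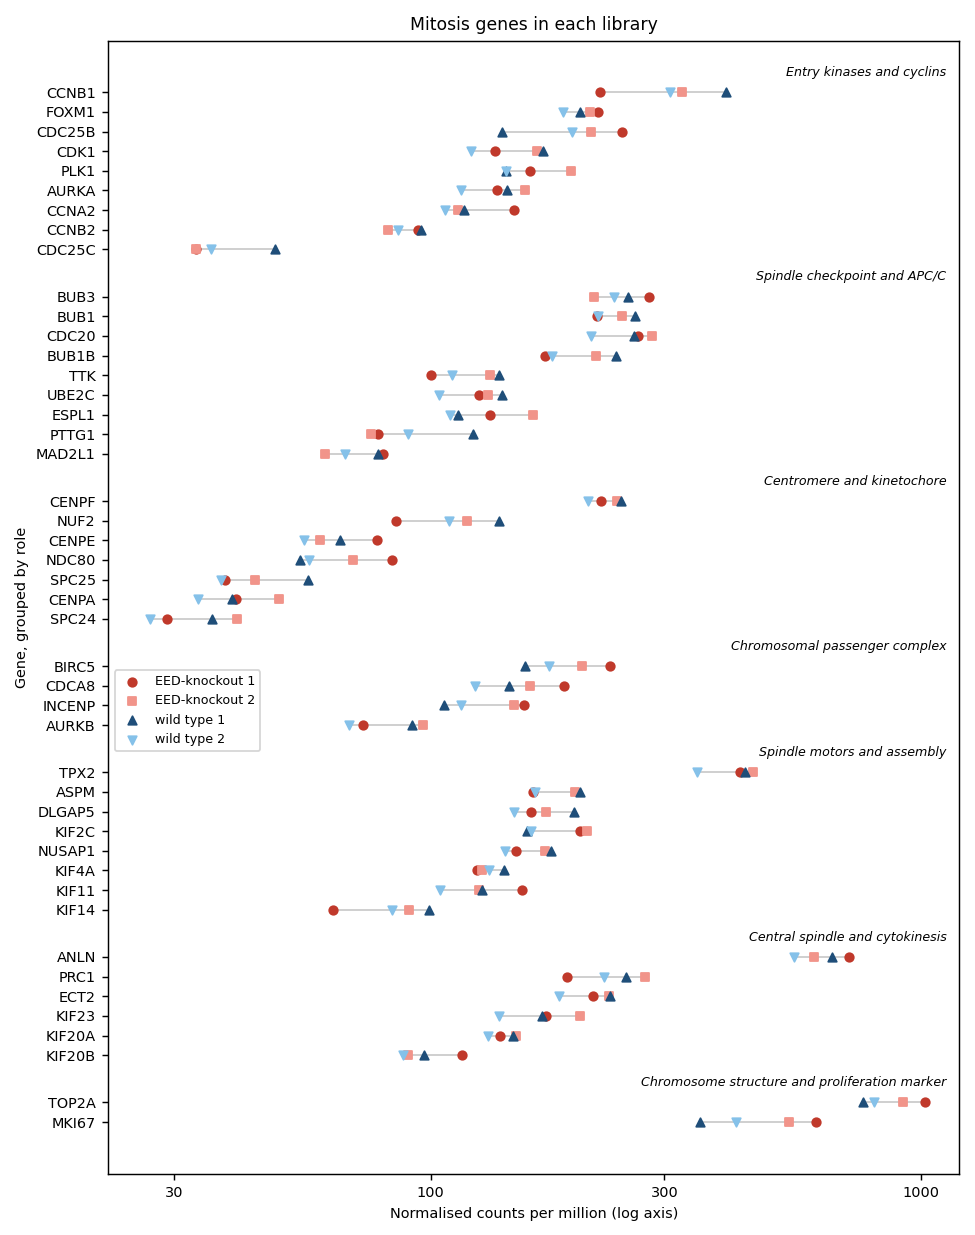
CPM of the 45 mitosis genes (log axis) in each of the 4 libraries, grouped by role, with 1 point per library and a grey line over the range. Levels run from SPC24 and CDC25C at the low end to TOP2A, at 1022 CPM in EED-knockout 1, and the genotypes overlap for most genes, with MKI67, TOP2A and INCENP among those that do not.

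No mitosis gene passed the test between genotypes. EdgeR's quasi-likelihood test with Benjamini-Hochberg adjustment over all genes called 0 of the 45, as it called 0 of 18349 genes (0%), and DESeq2 also called 0 of the 45, with a smallest adjusted p of 0.438 among them. Without adjustment, 3 members had an edgeR p under 0.05 and were higher in knockout (6.67% of members, against 2.85% of all genes), and 0 were lower (against 3.05%). The fold changes were small: 30 of 45 were above 0, 66.7% against 50.9% of all genes, with a median of 0.10 on the log2 scale against 0.01 for all genes tested. The members ran from -0.46 for PTTG1 to 0.57 for MKI67. None of the 45 genes had a 95% interval that reached above 1.04 or below -0.97 on the log2 scale. Each interval is of 1 gene and rests on the spread among these 4 libraries, so the extremes are not a joint limit. In 14 members neither knockout value was under either wild type value, 31.1% against 17.8% of all genes, and in 3 members both were lower, 6.67% against 18.0%. With 2 libraries a genotype, an exact two-sided permutation test of 1 gene cannot go below p = 0.333.

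The median rested on which wild type library it was set against. Relative to each gene's own mean over 4 libraries, the median of the 45 genes was 0.01 in EED-knockout 1 and 0.10 in EED-knockout 2, against 0.08 in wild type 1 and -0.16 in wild type 2. Wild type 2 stood apart: it was the lowest of the 4 libraries for 24 members and the highest for 0. Without wild type 2 the members' median fold change was -0.043, with 19 of 45 above 0, and without wild type 1 it was 0.26, with 39 above 0. Leaving out a knockout library changed it less, to 0.11 without EED-knockout 1 and 0.07 without EED-knockout 2. Within the wild type, wild type 1 exceeded wild type 2 in 38 of 45 members, 84.4% against 49.9% of all genes, by a median of 0.25 on the log2 scale. A class of 9007 tested genes with mean log2 CPM above 4 holds all 45 members. In that class wild type 1 exceeded wild type 2 in 5398 genes, a larger share than over all genes, and the same median difference was 0.07. EED-knockout 2 exceeded EED-knockout 1 in 28 members (62.2% against 50.2%), by a median of 0.10. Both of these within-genotype orders held in 27 members, 60.0% against 28.2% of all genes. Across the 45 genes the difference between the knockout libraries and that between the wild type libraries, which share no library, correlated with Pearson's r of 0.44, against 0.14 over all genes and 0.25 over the well-expressed class. Genes are not independent replicates. Which library was subtracted from which was chosen after seeing the data, and turning 1 difference around reverses the sign of r. The share of members with both orders also rises with the share that has each. Over the members the knockout difference had a Spearman rho of 0.058 with GC content and -0.26 with transcript length, and the wild type difference had one of -0.31 with GC content and -0.41 with length. Over the well-expressed class the wild type difference had a rho of -0.40 with GC content and -0.11 with length. The part of GC content and length in these differences was not tested. With both corrected in each library, 37 members lay above 0 and the median was 0.16.

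**Figure D2:**
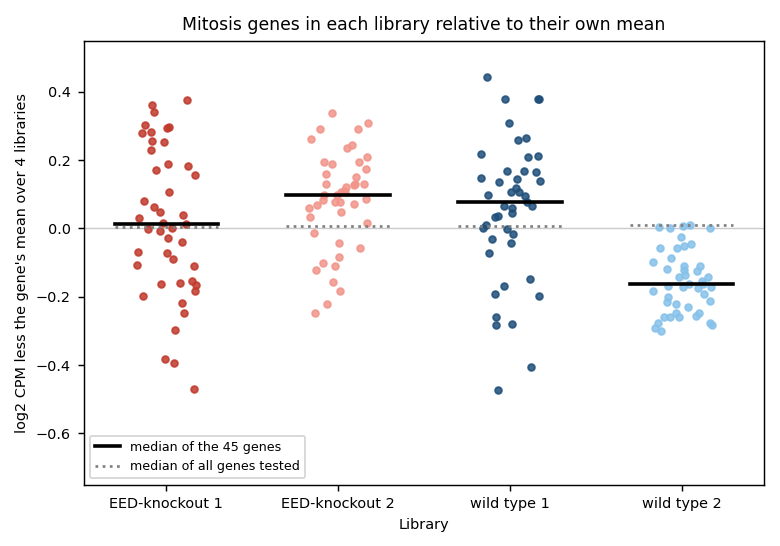
Log2 CPM of each of the 45 mitosis genes less that gene's mean over the 4 libraries, with the members' median (black bar) and the median of all genes tested (dotted). Wild type 2 lies below the rest at a median of -0.16, while the EED-knockout medians of 0.01 and 0.10 lie on either side of wild type 1 at 0.08.

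MKI67 and TOP2A, the chromosome proteins of the list, had higher values in both knockout libraries than in either wild type library, and neither passed the test. MKI67 encodes Ki-67, the coat of mitotic chromosomes that is used as a proliferation marker. It stood at 611 and 539 CPM in the EED-knockout libraries, against 355 and 420.2 CPM in the wild type libraries. The genotypes did not overlap, and knockout cells held 1.48-fold the wild type level (log2 fold change 0.57 ± 0.20, SE; edgeR unadjusted p = 0.0255, adjusted p = 0.808). Leaving out 1 library at a time gave log2 fold changes of 0.45 to 0.69. TOP2A, the topoisomerase that untangles sister chromatids, stood at 1022 and 923 CPM in knockout, against 762 and 802 CPM in wild type libraries. It did not overlap between genotypes either, with a log2 fold change of 0.31 ± 0.19 (edgeR adjusted p = 0.881). For both genes wild type 2 exceeded wild type 1, against the order of most members. The 7 members with this order were MKI67, TOP2A, INCENP, BIRC5, NDC80, CDC25B and KIF2C.

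The chromosomal passenger complex corrects faulty attachments and then marks the cleavage plane. Its 4 genes had a median of 0.39, below only the 0.44 of MKI67 and TOP2A among the role groups. Of these genes 4 of 4 lay above 0 (against 50.9% of all genes), and 3 had both knockout values above both wild type values (against 17.8%). With each arm's median taken out, 3 of 4 lay above 0 and the median of the complex was 0.34. INCENP, its scaffold, stood at 155 and 148 CPM in knockout, against 106 and 115 CPM in wild type libraries. Its log2 fold change was 0.45 ± 0.18 (edgeR unadjusted p = 0.0415, adjusted p = 0.829). Corrected for GC content and length, it was 0.27 (edgeR unadjusted p = 0.170). BIRC5, or survivin, which recruits the complex to centromeres, stood at 233 and 204 CPM in knockout, against 156 and 174 CPM in wild type libraries, a log2 fold change of 0.40 ± 0.19 (adjusted p = 0.857). CDCA8, or borealin, another targeting subunit, gave 0.37 ± 0.20. The kinase of the complex did not share their pattern: AURKB stood at 72.9 and 96.5 CPM in knockout, against 91.6 and 68.2 CPM in wild type libraries. These values overlapped, with a log2 fold change of 0.08 ± 0.24 that was below 0 under 3 of 15 alternative settings.

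Among centromere and kinetochore genes the subunits of the NDC80 complex, the microtubule-binding arm of the kinetochore, did not share a direction. NDC80 stood at 83.3 and 69.5 CPM in knockout, against 54.2 and 56.5 CPM in wild type libraries. Its genotypes did not overlap, with a log2 fold change of 0.46 ± 0.19 (edgeR unadjusted p = 0.0478, adjusted p = 0.840). Its direct partner NUF2 stood at 85.2 and 119 CPM in knockout, against 138 and 109 CPM in wild type libraries, which overlapped (log2 fold change -0.28 ± 0.24). The remaining subunits lay between them, SPC24 at 0.14 ± 0.26 and SPC25 at -0.19 ± 0.25. With GC content and length corrected NDC80 stood at 0.63, NUF2 at -0.06, SPC24 at 0.09 and SPC25 at 0.04. NUF2 changed sign under 3 of 15 alternative settings. CENPA, the histone H3 variant that marks centromeres, did not overlap between genotypes, with 40.1 and 49.1 CPM in knockout against 39.2 and 33.5 CPM in wild type libraries. CENPF, an outer kinetochore protein, and CENPE were at 0.03 and 0.19. The group's median was 0.14 with 5 of 7 members above 0. CENPA overlaps SLC35F6 on the same strand, with mean counts of 749.7 and 731.3, so reads of the pair may have been divided by the quantification model.

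The entry kinases and cyclins had a median of 0.15 with 6 of 9 above 0. CDK1, the kinase that starts mitosis, stood at 135 and 165 CPM in knockout, against 169.5 and 121 CPM in wild type libraries, a log2 fold change of 0.05 ± 0.23. Its cyclin partner CCNB1 stood at 222 and 326 CPM in knockout, against 399.9 and 308 CPM in wild type libraries. EED-knockout 1 was low and the genotypes overlapped (log2 fold change -0.37 ± 0.25, adjusted p = 0.892). The phosphatases that activate CDK1 had fold changes of opposite sign, and the difference between them was not tested. CDC25B stood at 246 and 212 CPM in knockout, against 139.8 and 194 CPM in wild type libraries, with no overlap and a log2 fold change of 0.46 ± 0.23 (adjusted p = 0.865). CDC25C stood at 33.1 and 33.2 CPM in knockout, against 48.2 and 35.6 CPM in wild type libraries, with no overlap and -0.34 ± 0.22 (adjusted p = 0.888). CDC25C lies on 5q, an arm that was lower in knockout as a whole. With each arm's median taken out, as described further on, CDC25B stood at 0.37 and CDC25C at 0.07. PLK1, which activates the CDC25 proteins, stood at 159.8 and 194 CPM in knockout, against 143 and 142 CPM in wild type libraries. That is 0.31 ± 0.19 with no overlap. AURKA, the kinase of the spindle poles, overlapped between genotypes, at 136 and 156 CPM in knockout against 143 and 116 CPM in wild type libraries. FOXM1, the transcription factor of the G2/M programme, stood at 220.0 and 212 CPM in knockout, against 202 and 186 CPM in wild type libraries, a difference of 0.15 ± 0.18. CDC25C, FOXM1, CCNA2 and KIF20A each overlap well-expressed genes on the opposite strand, as do SPC24, KIF4A and ANLN. The sources used here do not say whether the libraries keep strand, and without it reads of such pairs cannot be told apart.

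Genes of the spindle checkpoint and the APC/C had a median of -0.04 with 4 of 9 above 0. ESPL1, the separase that cuts cohesin at anaphase, and PTTG1, the securin that holds it back, lay at opposite ends of the group. ESPL1 stood at 132 and 162 CPM in knockout, against 114 and 109.7 CPM in wild type libraries (log2 fold change 0.40 ± 0.19, adjusted p = 0.863). PTTG1 stood at 78.1 and 75.5 CPM in knockout, against 122 and 89.9 CPM in wild type libraries (log2 fold change -0.46 ± 0.21, edgeR unadjusted p = 0.0669, adjusted p = 0.855). Neither overlapped between genotypes, and with GC content and length corrected ESPL1 stood at 0.22 and PTTG1 at -0.25. With each arm's median taken out, ESPL1 stood at 0.35 and PTTG1, which lies on 5q, at -0.05. CDC20, the APC/C activator of metaphase, stood at 265 and 284 CPM in knockout, against 260.3 and 212 CPM in wild type libraries, a log2 fold change of 0.22 ± 0.20. UBE2C stood at 126 and 131 CPM in knockout, inside the wild type range of 139.7 and 104 CPM. The checkpoint proteins proper, BUB1, BUB1B, BUB3, MAD2L1 and the kinase TTK, were all between -0.10 and 0.02.

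Spindle motors and assembly factors had a median of -0.01 with 4 of 8 above 0. KIF2C, a depolymerising kinesin at centromeres, stood at 201 and 209 CPM in knockout, against 157 and 160.4 CPM in wild type libraries, with no overlap and a log2 fold change of 0.37 ± 0.18 (adjusted p = 0.860). KIF14, a kinesin of the midbody, stood at 63.1 and 90.2 CPM in knockout, against 99.3 and 83.5 CPM in wild type libraries. EED-knockout 1 was lowest and the genotypes overlapped (-0.25 ± 0.23). TPX2, the activator of AURKA on the spindle, stood at 427 and 455 CPM in knockout, against 439 and 349.9 CPM in wild type libraries, a log2 fold change of 0.16 ± 0.20. The central spindle and cytokinesis genes had a median of 0.11 with 5 of 6 above 0. KIF23, the kinesin subunit of centralspindlin, stood at 172 and 202 CPM in knockout, against 169 and 138 CPM in wild type libraries, just short of overlap (0.29 ± 0.20). PRC1, which bundles antiparallel microtubules, stood at 189 and 274 CPM in knockout, against 251 and 226 CPM in wild type libraries. Its difference of -0.04 ± 0.23 changed sign under 6 of 15 alternative settings. ANLN, the actin-binding scaffold of the contractile ring, was the most abundant of these genes and overlapped, at 716 and 607 CPM in knockout against 661 and 552 CPM in wild type libraries.

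**Figure D3:**
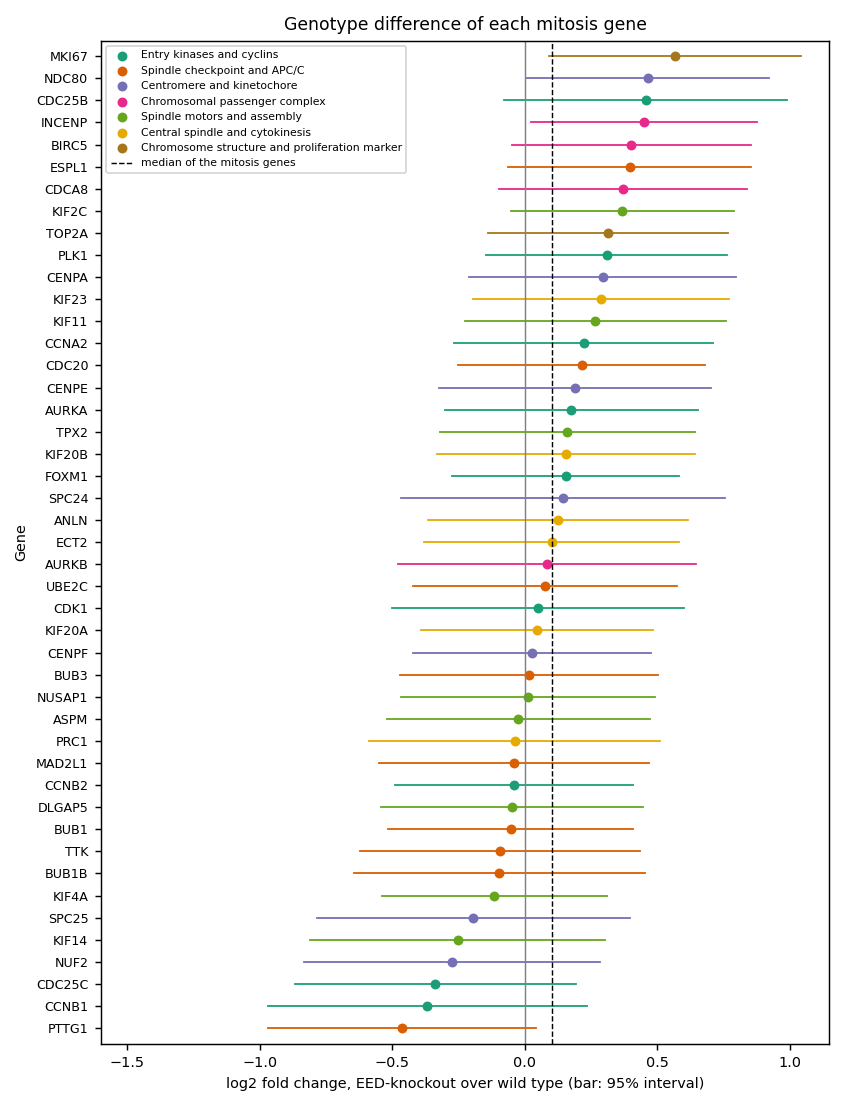
Log2 fold change of EED-knockout over wild type for each of the 45 mitosis genes, with its 95% interval from edgeR, ordered by size and coloured by role. The points run from -0.46 (PTTG1) to 0.57 (MKI67) around a median of 0.10 (dashed), and the intervals of 42 genes include 0.

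Among the 5 lowest members, 3 lie on the long arm of chromosome 5, as does KIF20A, and the whole arm was lower in knockout. CCNB1, CDC25C, PTTG1 and KIF20A had log2 fold changes of -0.37, -0.34, -0.46 and 0.05. Over the 440 genes of arm 5q with mean log2 CPM above 3, the median log2 fold change was -0.40. Relative to the wild type mean, the arm's median lay at -0.46 in EED-knockout 1 and -0.31 in EED-knockout 2, against 0.13 in wild type 1 and -0.13 in wild type 2, so both knockout libraries lay below both wild type libraries. Of the other genes of mitosis in the lists described further on, 5 lie on 5q (CENPH, CENPK, SPDL1, HMMR and CDC23), and 5 of 5 had log2 fold changes below 0, from -0.55 to -0.28. With each arm's median taken out of each library, a correction chosen after seeing the data, CCNB1 stood at 0.02, CDC25C at 0.07 and PTTG1 at -0.05. KIF20A, the kinesin that carries the passenger complex to the central spindle, then stood at 0.44 (edgeR unadjusted p = 0.0152). With this correction 6 members had an unadjusted p under 0.05, all higher in knockout, 13.3% against 3.35% of all genes, and the smallest adjusted p was 0.822. The correction also lowered members on arms that were higher in knockout. Arms 17p and 17q had medians of 0.19 and 0.10, and AURKB then stood at -0.13, BIRC5 at 0.31 and TOP2A at 0.21. NDC80, INCENP and MKI67 then stood at 0.35, 0.38 and 0.51. Over the 45 members the corrected median was 0.12, with 34 above 0. Arm 1q, which carries CENPF, NUF2, KIF14 and ASPM, lay at -0.36 in EED-knockout 1 and 0.00 in EED-knockout 2, against 0.08 in wild type 1 and -0.08 in wild type 2. NUF2 and KIF14 were both lowest in EED-knockout 1. ASPM was nearly level there and in wild type 2, at 161.9 and 163.4 CPM. CENPF was lowest in wild type 2, at 209.9 CPM against 222.9 CPM in EED-knockout 1. Off 5q, 29 of 41 members were above 0, with a median of 0.14.

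**Figure D4:**
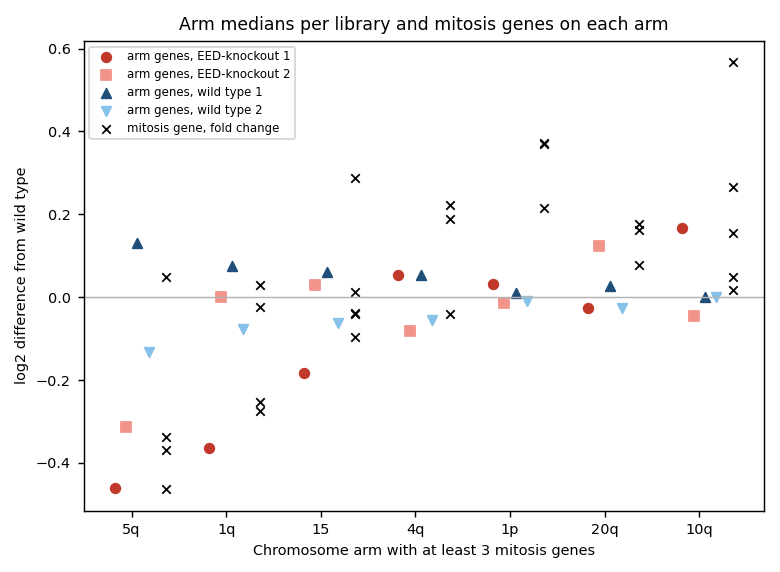
For each chromosome arm with at least 3 mitosis genes, the median log2 difference from the wild type mean of the arm's genes in each library (coloured points), and the log2 fold change of each mitosis gene there (crosses). On 5q both EED-knockout medians, -0.46 and -0.31, lie below both wild type medians, beside CCNB1, CDC25C and PTTG1.

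Transcripts of the members were tested in the same way. Of 344 transcripts listed for the 45 genes, 216 were tested, and edgeR called 0 of them. At an unadjusted p under 0.05, 7 of the 216 were higher in knockout, against 1257 of all 56858 transcripts tested (2.21%). Lower were 2 of the 216, against 1379 of all (2.43%). These 2 were PRC1-020 (log2 fold change -2.79, edgeR unadjusted p = 0.0107) and BUB1B-008 (-2.56, edgeR unadjusted p = 0.0251). For 33 members a single transcript held more than 50% of the gene's TPM on average, and for 7 more than 90%. The separase transcript ESPL1-002 had 811 and 639.7 estimated counts in knockout, against 199 and 171 in wild type libraries, a log2 fold change of 1.91 ± 0.25 (edgeR unadjusted p = 0.00101, adjusted p = 0.823). It held 18.2% and 14.3% of ESPL1 TPM in knockout libraries, against 6.97% and 4.97% in wild type libraries, while the longer ESPL1-201 overlapped between genotypes. For KIF14 the division between its forms also differed among these libraries, without passing the test. KIF14-201 had 71.1 and 0.713 estimated counts in knockout, against 573 and 339 in wild type libraries, and its share of KIF14 TPM was 6.34% and 0.0454% in knockout, against 33.3% and 23.8% in wild type libraries. The log2 fold change of KIF14-201 was -3.73 ± 1.51 (edgeR unadjusted p = 0.0633, adjusted p = 1.00). The 2 main forms of MKI67 were divided differently between libraries: MKI67-001 had 6284 and 3133 estimated counts in knockout, against 2012 and 3147 in wild type libraries. MKI67-002, which is shorter, had 5282 and 6938 in knockout, against 4416 and 4436 in wild type libraries, and of the pair this form did not overlap between genotypes. CCNA2-001 and CCNA2-201, which have the same length, showed how far the division can swing between libraries of 1 genotype, with CCNA2-201 at 63.7% and 37.9% of CCNA2 TPM in knockout, against 38.7% and 15.03% in wild type libraries. Transcript counts rest on a model that divides fragments between overlapping forms.

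Other genes of mitosis were described from 6 further lists, and edgeR called 0 of them. Their medians lay above 0 in 3 lists and below 0 in 3, and differences between lists were not tested. The 32 other centromere and kinetochore genes had a median log2 fold change of 0.07 with 19 above 0, and at an unadjusted p under 0.05 CENPO, a subunit of the inner kinetochore, was higher (0.48 ± 0.18) and CENPH, another, lower (-0.54 ± 0.21). The extremes of that list were CENPO and CENPK (-0.55 ± 0.25). The 35 other spindle and centrosome genes had a median of 0.14 with 27 above 0, led by GTSE1, a microtubule-associated protein of G2 (0.54 ± 0.20), and with HMMR lowest (-0.47 ± 0.23). SPAG5, or astrin, also had an unadjusted p under 0.05 (0.49 ± 0.19). Condensin and cohesin genes had a median of 0.09 with 13 of 19 above 0, from RAD21, the cohesin cleaved by separase (-0.31), to CDCA5, or sororin (0.47, unadjusted p under 0.05). APC/C subunits and partners had a median of -0.01 with 8 of 17 above 0, from CDC26 (-0.53) to FZR1, the activator of the APC/C in late mitosis (0.54, unadjusted p under 0.05). Mitotic entry control genes had a median of -0.09 with 5 of 14 above 0, from ARPP19, an inhibitor of the phosphatase PP2A (-0.59), to CCNF (0.28). Cell cycle transcription factors, among them the MuvB subunits, had a median of -0.12 with 6 of 15 above 0, from E2F5 (-0.49) to LIN37 (0.29).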

How the data were processed

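Per the submitters' processing notes, kallisto 0.43.1 and the build hg38 were used. The authors deposited 1 table per library, and per the file headers it holds an estimated count and a TPM value for each transcript. The sources used here give neither annotation release nor run settings. RNA was extracted with TRIZOL and made into libraries with an Illumina kit, per the labels' protocols.

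The counts of 199324 transcripts were added up by gene identifier and rounded, giving 58174 genes. Genotypes were compared with edgeR 4.0.16 (R 4.3.3; quasi-likelihood F test, TMM factors, filterByExpr with minimum count 10 and minimum total 15, no covariate), adjusted by Benjamini-Hochberg over all genes tested, threshold 0.05, two-sided. A member or list count at an unadjusted p is a description. Standard errors and 95% intervals are of that fit. Floors of 3 counts cover counting error only. Gene positions and GC content came from GENCODE 29 (GRCh38). Chromosomes were split into arms at their widest gap between annotated genes. The genes named were EED, per role group the most abundant member and those with the highest and lowest fold change, the 5 highest and 5 lowest members, any at an unadjusted p under 0.05, 10 fixed genes, and per list the highest and lowest gene, of which 1 is not reported here. CDCA8, CENPA, CENPE, CENPF, SPC24, SPC25, BUB1, BUB1B, BUB3, MAD2L1, TTK, KIF20A, KIF20B, KIF4A, CCNB2, CENPH, SPDL1, CDC23, SPAG5, E2F1 and the transcripts described were named beyond this rule after their values were seen. The members and lists were chosen with earlier results of these data known. DESeq2 1.42.0, limma 3.58.1 and other settings served as alternatives.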

Additional observations from a re-analysis of the deposited data

How the results depend on the processing

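None of the 45 mitosis genes was called under any of the 15 alternatives, and 15 of 24 named members kept their sign under all of them. Over all genes, DESeq2 called 26 higher and 42 lower, and leaving out each library gave 0 to 15 higher and 0 to 10 lower. Members at an unadjusted p under 0.05 and higher in knockout numbered 3, and 9 and 8 with limma-trend on TPM at pseudocounts of 1 and 0.1, 1 with length-scaled TPM counts, 6 with chromosome arms corrected, and 0 to 2 with each library left out (over all genes 2.85%, and in the same order 3.62%, 3.53%, 2.77%, 3.35% and 0.878% to 5.55%). With the replicate block they numbered 0 (2.06% of all genes). Deviations of same-numbered libraries from their group means correlated at -0.14 (Pearson) over all genes, and with the crossed pairing, chosen after seeing the data, edgeR called 0 genes. Members with both knockout libraries above both wild type libraries numbered 14, and 24 in TPM in both limma-trend fits (17.8% and 23.4% of all genes). With each library left out, which leaves fewer values to separate, they numbered 14 to 31 (27.9% to 38.5% of all genes). Those below numbered 3, and 1 with GC content and length corrected (18.0% and 16.5% of all genes). With each library left out they numbered 3 to 18 (28.6% to 38.6%). The members' median of 0.10 ran from -0.043 to 0.26 with each library left out, where the lone library is taken to vary as the other genotype does, and no other alternative moved it by more than the SD of 0.13 between replicates. The cause of these changes was not tested.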

Other observations

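DNA replication genes, which act before mitosis, are the nearest list for comparison. Their median log2 fold change was 0.21 with 25 of 35 above 0, and 18 of 35 had both EED-knockout libraries above both wild type libraries, 51.4% against 17.8% of all genes. E2F1, the transcription factor of S phase entry, stood at 50.03 and 51.9 CPM in knockout, against 35.6 and 38.6 CPM in wild type libraries (edgeR unadjusted p = 0.0463, adjusted p = 0.834). MCM5, a subunit of the replicative helicase, was the highest of the list at 0.55 ± 0.25, with 183 and 125 CPM in knockout against 90.3 and 120.1 CPM in wild type libraries. These genes held CHR letters in 6.67% of the 30 genes with a promoter window, against 78.9% of the mitosis genes, and CCAAT in 66.7%. Whether the lists differ between genotypes from each other was not tested.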
